A study of Mus musculus with 12 samples.

Results

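The regions described here were called as open chromatin with CD mothers under both offspring diets and with WD mothers under neither, in cells labelled MAECs, read as mouse aortic endothelial cells, which line the aorta. The assay was ATAC-seq, where a transposase inserts sequencing adapters into accessible DNA. The regions were thus selected on the authors' peak calls. They were chosen by merging the peaks of 4 lists on chromosomes 1 to 19 and X wherever they overlapped by at least 1 bp. Of 48003 merged regions, 234 (0.487%) held a peak of both CDM-CDO and CDM-WDO and of neither WDM-CDO nor WDM-WDO. CDM and WDM were read as mothers on CD or WD, and CDO and WDO as offspring on CD or WD. Sample titles give a pair of diets, taken here as the mother's and then the offspring's, an order that the labels do not spell out. CD and WD are not spelled out in the labels, and a high-fat diet of the mothers is named in the title. The series' design text has both CDM-WDO and WDM-WDO put on WD again for 4 weeks and does not say when they had it before.

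Each group had 2 ATAC-seq samples but 1 peak list, so no value below has a replicate or a test. Peak names carry 8 w in both CDO lists and 12 w in both WDO lists, so the offspring's diet and this time cannot be told apart. Genotype, strain, sex, age and the number of animals are not given in the sources used here. Lists held 18962 to 28319 peaks, and median summit pileups (the reads stacked at a peak's highest point, recovered from the deposited scores) were 31 to 39. Of 20 endothelial identity genes, 6 to 9 had a peak within 1 kb of a gene end, against 35.0 to 45.2% of all protein-coding genes. Of 16 macrophage and monocyte markers, 6 had such a peak in CDM-CDO, 5 in CDM-WDO, 6 in WDM-CDO and 13 in WDM-WDO. Neutrophil markers numbered 0, 1, 0 and 4 of 12 in the same order, and lymphocyte markers 8, 3, 9 and 6 of 16. White blood cell markers of the first 2 kinds were thus highest in WDM-WDO, one of the lists whose missing calls chose the regions, and their part in the results was not tested. Bulk peaks do not separate a site open in fewer cells from one less open in each cell.

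Accessible regions are stretches where nucleosomes leave room for regulatory proteins. Promoters of widely used genes are open in most cells, while regions far from genes, many of them enhancers, differ more between cell types and states. A region is called when its reads pass a threshold over background, so a missing call does not show closed chromatin.

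A few of the regions lay on annotated promoters, and their sequences are shown first because there the region's place against a gene start can be read base by base. RefSeq's table of promoters (GRCm38.p6, the build named for the peaks) gives the sequence from 250 bases before to 50 after each start. Of the 234 regions, 14 touched such a window, 15 windows of 14 genes in all. Shown are those of 5 protein-coding genes, chosen after the values were seen because both summits lay near the start. The 250 bases before the start are printed 5′ to 3′ on the gene's strand, with matches to the KLF/SP motif GGGCGGG or the ETS motif GGAAGT, on either strand, in capitals. They lie at chr10:57631731-57631980 (Pkib, + strand), chr10:108331939-108332188 (Pawr, + strand), chr5:123973378-123973627 (Hip1r, + strand), chr8:22125068-22125317 (Nek5, − strand) and chr13:56702760-56703009 (Smad5, + strand).
Pkib: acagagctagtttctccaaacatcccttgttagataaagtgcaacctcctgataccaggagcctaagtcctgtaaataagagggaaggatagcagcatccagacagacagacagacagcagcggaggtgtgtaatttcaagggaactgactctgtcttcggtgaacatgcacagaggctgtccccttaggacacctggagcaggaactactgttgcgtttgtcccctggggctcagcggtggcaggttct
Pawr: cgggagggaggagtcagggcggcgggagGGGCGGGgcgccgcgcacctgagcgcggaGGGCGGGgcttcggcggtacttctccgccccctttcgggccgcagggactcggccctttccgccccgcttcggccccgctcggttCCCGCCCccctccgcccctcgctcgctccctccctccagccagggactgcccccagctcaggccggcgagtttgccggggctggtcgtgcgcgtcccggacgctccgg
Hip1r: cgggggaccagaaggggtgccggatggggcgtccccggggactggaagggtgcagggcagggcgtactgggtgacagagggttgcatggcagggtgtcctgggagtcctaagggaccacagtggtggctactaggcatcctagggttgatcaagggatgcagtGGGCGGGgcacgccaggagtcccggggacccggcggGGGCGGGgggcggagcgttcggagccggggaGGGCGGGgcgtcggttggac
Nek5: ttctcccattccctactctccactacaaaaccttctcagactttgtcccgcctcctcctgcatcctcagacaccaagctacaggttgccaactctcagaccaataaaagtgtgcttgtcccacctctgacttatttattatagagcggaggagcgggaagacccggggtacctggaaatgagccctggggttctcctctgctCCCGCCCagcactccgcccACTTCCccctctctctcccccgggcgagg
Smad5: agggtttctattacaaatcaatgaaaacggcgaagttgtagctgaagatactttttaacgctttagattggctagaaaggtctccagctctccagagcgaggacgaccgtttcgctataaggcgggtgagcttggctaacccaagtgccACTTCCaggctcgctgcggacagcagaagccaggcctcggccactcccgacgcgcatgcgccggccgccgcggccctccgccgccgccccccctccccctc

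Over all 15 windows the summits lay at -542 to 348 bases from the start in CDM-CDO and at -1156 to 536 in CDM-WDO, with minus for bases before it. In Pkib, which encodes an inhibitor of protein kinase A, the summit was 17 bases after the start in CDM-CDO and 3 bases after it in CDM-WDO. In Pawr, the gene of a protein that promotes cell death, the summits were 19 bases before the start in CDM-CDO and 96 after it in CDM-WDO. For Smad5, which carries signals of bone morphogenetic proteins to the nucleus, they were 31 bases after the start in CDM-CDO and 105 before it in CDM-WDO. GC content of the whole windows was 54% for Pkib, 75% for Pawr, 72.3% for Hip1r, 58.7% for Nek5 and 63% for Smad5. Pkib's printed sequence held neither motif, while Pawr's and Hip1r's each held several copies of GGGCGGG.

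As a set, the 15 windows were GC-rich, with a median of 63% against 53% for all 32619 windows and 62.3% for the 8808 windows touched by regions of all 4 lists. GGGCGGG stood in 6 of the 15 (40%, 95% Wilson interval 19.8 to 64.3%), in 25.7% of all windows and in 52.3% of windows open in all 4 lists. GGAAGT stood in 3 of the 15 (20%, 7.05 to 45.2%) and in 23.9% of all. A core of the CTCF site, AGNGGGC, stood in 10 of 15 (66.7%, 41.7 to 84.8%), against 25.9% of all windows and 38.6% of those open in all 4 lists. Its share in windows touched by regions of WD mothers alone lay between these last 2 values. The GATA-factor motif was found in 2 of 15 windows (letters AGATAA), against 11.2% of all. The RUNX motif TGTGGT was also found in 2 of 15, against 16.6% of all. AP-1 (TGANTCA) and SOX (ACAATG) matched none of the 15, with a Wilson interval up to 20.4%, and 7.85% and 12.2% of all windows. Matches were sought on both strands of the 300 bases, the CTCF core and the KLF/SP motif can overlap, and a match is a description and not a binding site. With 15 windows, 2 of which overlap in Smad5, these shares are coarse. The 7 motifs were kept from a longer list after counts were seen, and the intervals do not allow for that choice. The CTCF share is thus a description and not a test of that motif.

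The 234 regions were weak peaks in both lists that held them. Fold enrichment at the summit (reads over local background, the authors' value, as are the −log10 q values below) ran from 2.32 to 4.71 in CDM-CDO, with a median of 2.97. In CDM-WDO it ran from 2.25 to 4.95, with a median of 2.93. Summit pileups had medians of 19 and 21 reads, and the highest were 41 in CDM-CDO and 45 in CDM-WDO. By −log10 q, 161 of the 234 (68.8%) were among the weakest 25% of CDM-CDO and 111 (47.4%) among the weakest 25% of CDM-WDO. In the stronger 50% of their list stood 1 region in CDM-CDO and 18 in CDM-WDO, and the strongest 10% held none in either list. Since the calls chose the regions, these values are a description.

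**Figure D1:**
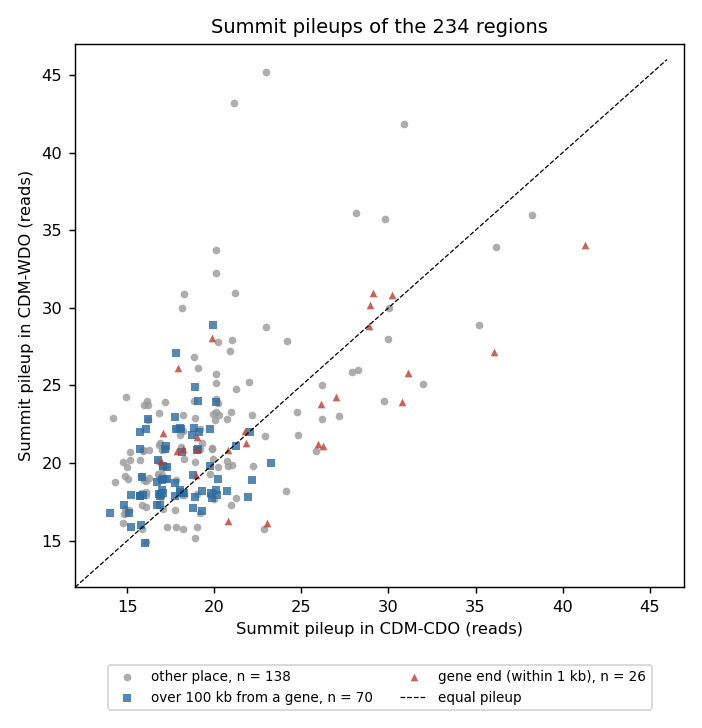
Summit pileup of each of the 234 regions in CDM-CDO (x axis, reads) and CDM-WDO (y axis, reads), 1 point per region, moved slightly at random so that points at the same whole number show; red triangles are within 1 kb of an end of a protein-coding gene, blue squares over 100 kb from any, grey points elsewhere, and the dashed line marks equal pileups. Most points sit low in both lists, around the medians of 19 and 21 reads, and the few regions of over 30 reads in either list include gene-end regions but none over 100 kb from a gene.

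Among all 11269 regions called in both lists of CD mothers, 2.08% had no peak of WD mothers. That share depended on strength. Regions were binned by the lower of their 2 percentiles of −log10 q, each taken among all peaks of its list. Of 359 regions at up to 10, 77 (21.4%) had no WD-mother peak. Between 10 and 25 it was 118 of 854 (13.8%), and between 25 and 50 it was 38 of 2362 (1.61%). Above, 1 of 3672 regions between 50 and 75 and 0 of 4022 beyond 75 lacked one. In the opposite direction, 1691 of the 16103 regions called in both lists of WD mothers (10.5%) had no peak of CD mothers, and their median pileups were 28 in WDM-CDO and 32 in WDM-WDO. WD-mother lists were also the longer ones, and at regions of all 4 lists their pileups above background were a median 1.45 times (WDM-CDO over CDM-CDO) and 1.50 times (WDM-WDO over CDM-WDO) as high. Genome backgrounds, recovered like the pileups, were 4.84 reads in CDM-CDO, 5.49 in CDM-WDO, 5.59 in WDM-CDO and 6.08 in WDM-WDO. The parts that depth and signal above background play in the count of 234 were not tested.

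**Figure D2:**
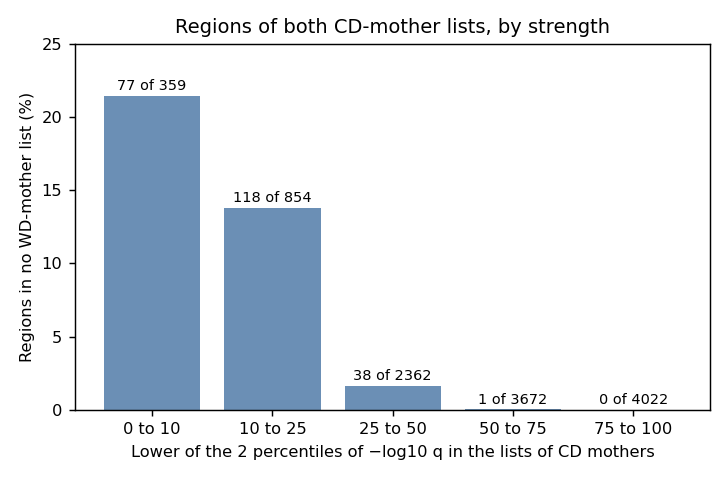
Share of regions called in both lists of CD mothers that had no peak in either list of WD mothers (y axis, %), in bins of the lower of the region's 2 percentiles of −log10 q (x axis); counts stand above the bars. The share is 21.4% in the weakest bin and 0 of 4022 in the strongest.

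The 2 lists of CD mothers placed the summit at different points of most regions. The gap between their summits had a median of 175 bp, and 36 of 234 regions (15.4%) had summits within 50 bp. Regions of all 4 lists had a median gap of 59 bp, with 45.0% within 50 bp. Of these, the 878 that were in the weaker 50% of both lists of CD mothers had a median of 142 bp and 21.5% within 50 bp. For regions of WD mothers alone the gap between the WDM-CDO and WDM-WDO summits was a median 100 bp. Across the 234 regions, fold enrichments in the 2 lists were weakly related (Spearman's rho 0.23, with the peaks of 1 list sharing depth), against 0.80 over the 10351 regions of all 4 lists. By −log10 q rho was 0.11 for the 234 and 0.02 for the 878 weak regions of all 4 lists. The 878 were cut on this same −log10 q, which narrows its range and can lower rho. Whether a weak relation is particular to the 234 can therefore not be read from these values. Each of the 234 regions held exactly 1 peak of each list and had a median width of 625.5 bp.

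At the edge of the rule, the region nearest to a WD-mother peak without touching one lay 30 bp from a WDM-CDO peak, in Lrch2 on chromosome X. The next lay 55 bp from one, on chromosome 1. Just outside, a region near Cntn5 on chromosome 9 (10366257 to 10367418) overlapped a WDM-CDO peak by 18 bp. Within 1 kb of a WD-mother peak lay 13 of the 234 (5.56%), within 10 kb 61 (26.1%), and the median distance was 30213 bp. Of the 1691 regions of WD mothers alone, 94 (5.56%) lay within 1 kb of a CD-mother peak, and their median distance was 14111 bp. Of the 11035 regions that both CD-mother lists shared with a WD-mother list, 7 overlapped by less than 100 bp.

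Under the main rule, the regions were less often at genes' ends and more often far from any gene than all merged regions were. Within 1 kb of an end of a protein-coding gene lay 26 of 234 (11.1%, 7.70 to 15.8%), against 24.7% of all merged regions, 67.4% of regions of all 4 lists and 18.1% of regions of WD mothers alone. Over 100 kb from any protein-coding gene lay 70 (29.9%, 24.4 to 36.1%), against 13.6% of all merged regions, 1.54% of those of all 4 lists and 6.56% of those of WD mothers alone. Of regions found in a single CD-mother list, 24.2% (CDM-CDO alone) and 34.1% (CDM-WDO alone) were that far away, and 9.50% and 3.91% were at gene ends. Another 72 lay inside a gene away from its ends and 66 outside genes within 100 kb. Of the 234, 113 overlapped no annotated gene of any kind, 24 overlapped a long noncoding RNA gene and 9 a pseudogene. None lay within 1 kb of a microRNA gene. These counts were not taken over all merged regions, so they do not show whether the 234 differ. Intervals are 95% Wilson intervals and cover counting error only. Regions of single CD-mother lists were weak too, with median pileups of 18 and 19 reads, against 60 and 48 at regions of all 4 lists. The part of peak strength in the place of the regions was not tested.

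**Figure D3:**
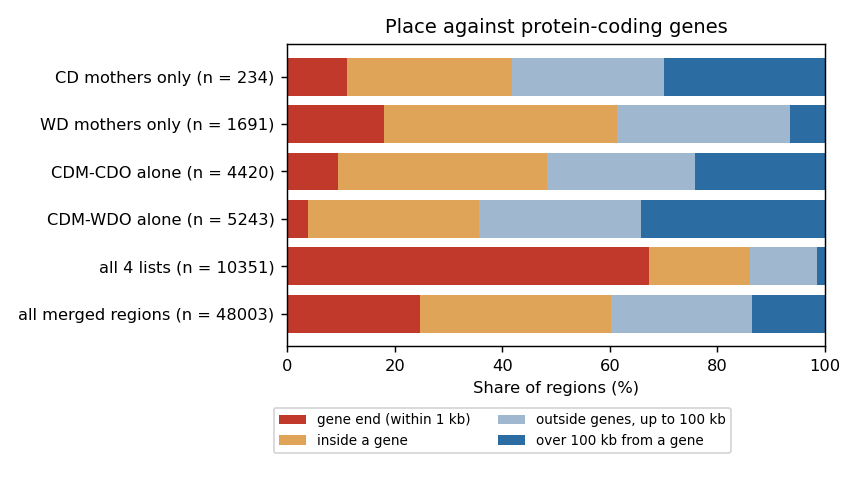
Place of regions against protein-coding genes as shares (x axis, %) for the 234 regions of CD mothers only and for 5 other sets, each bar split into 4 places that add to 100%. The top bar, with 11.1% at gene ends and 29.9% over 100 kb away, stands beside 67.4% and 1.54% in the bar of all 4 lists.

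Of the strongest regions by the lower of their 2 percentiles, the first lay inside Stap1, which encodes a signalling adaptor of blood cells (chromosome 5, 86086694 to 86087076). Its fold enrichment was 4.71 in CDM-CDO and 3.71 in CDM-WDO, with pileups of 32 and 25 reads, and the summits were 7 bp apart. Its closest WD-mother peak lay 7288 bp away. The second lay inside Lrp5, a coreceptor of Wnt signalling (chromosome 19, 3668911 to 3669452), with folds of 3.40 in CDM-CDO and 2.98 in CDM-WDO and pileups of 38 and 36. It was the only region assigned to Lrp5 in CDM-CDO and in CDM-WDO, and each WD-mother list had 1 at another place of the gene, the closest 11703 bp away. A region 36279 bp from Csnk2a1, the gene of a catalytic subunit of casein kinase 2, had folds of 3.77 and 3.63.

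Plekha2, which encodes a phosphoinositide-binding adaptor, held a region of fold 3.24 in CDM-CDO and 4.15 in CDM-WDO. The gene had 5 and 6 regions in these lists and 3 and 6 in WDM-CDO and WDM-WDO, so the locus was called in every list. The largest fold of any of the 234, 4.95 in CDM-WDO with 45 reads, was inside Lhfpl3 (chromosome 5, 23015635 to 23016241), where CDM-CDO had 3.48 and 23 reads. Its 2 summits were 5 bp apart, and the closest WD-mother peak was 85345 bp away. Of the rest of the 12 strongest, those of Nkpd1, Fhl1, Peg10 and Gm21154 lay in the gene, while those assigned to Gcc1 and Tm2d1 lay 6108 and 97241 bp away, and 1 on chromosome 8 lay 320589 bp from the nearest gene. Their folds were 2.95 to 4.15 in CDM-CDO and 2.59 to 4.08 in CDM-WDO.

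Gene-end regions came from genes of unlike roles. Nkpd1 had the strongest, with pileups of 41 in CDM-CDO and 34 in CDM-WDO, the highest of CDM-CDO, but a WDM-CDO peak lay 228 bp away. Fhl1, on chromosome X, encodes a LIM-domain protein abundant in muscle. Its region (56731208 to 56731592) had folds of 4.15 in CDM-CDO and 2.99 in CDM-WDO, and the nearest WD-mother peak lay 90259 bp away. At the Pkib promoter shown above (chromosome 10, 57631821 to 57632571) the folds were 4.24 in CDM-CDO and 3.06 in CDM-WDO, with 26 and 21 reads. The nearest WD-mother peak lay 88030 bp away. Pawr (chromosome 10, 108331921 to 108332909) had folds of 3.54 in CDM-CDO and 2.52 in CDM-WDO, with 31 and 24 reads, and the closest WD-mother peak was 107653 bp away.

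At Smad5, WDM-CDO and WDM-WDO each had a peak near it, 511 and 605 bp from the region (chromosome 13, 56702586 to 56703108). The region's folds there were 2.93 and 2.62. Hip1r, which links clathrin coats to actin, had pileups of 29 in both lists (folds 2.70 and 2.42). Nek5, a kinase gene, had 22 in both (3.34 and 2.96). Of the 26 gene-end regions, 7 (26.9%) belonged to genes with another region at an end in a WD-mother list, among them Smad5, Ablim1 and Ddx3x. The same was so for 150 of 420 gene-end regions of CDM-CDO alone (35.7%) and for 37 of 205 of CDM-WDO alone. The other genes of the 26 had none called at either end with WD mothers.

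Tlr7, the receptor gene for single-stranded RNA on chromosome X, had folds of 2.92 in CDM-CDO and 2.95 in CDM-WDO, with a WDM-WDO peak 611 bp away. Bmp3, a member of the bone morphogenetic protein family, had 2.85 and 3.24 and no region of WD mothers. Ccnd2, which encodes cyclin D2, had 2.44 and 2.29, with a WDM-CDO peak 492 bp away. Sytl4, whose product sits on secretory granules, had 2.80 and 3.28. At Snurf, which shares its transcript with Snrpn in an imprinted cluster, folds were 3.06 in CDM-CDO and 4.16 in CDM-WDO (chromosome 7, 60003678 to 60004754). The strongest 20 gene-end regions also included those of Mfhas1, Ubqln5, Osr2, Arhgap39, Pcnx, Cttnbp2 and, by its end, Afmid, with folds between 2.26 and 3.42. In 12 of these 20 regions the fold was higher in CDM-CDO and in 8 in CDM-WDO. Median folds of all peaks were 3.68 in CDM-CDO and 3.30 in CDM-WDO, so these counts do not show which group was more open.

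**Figure D4:**
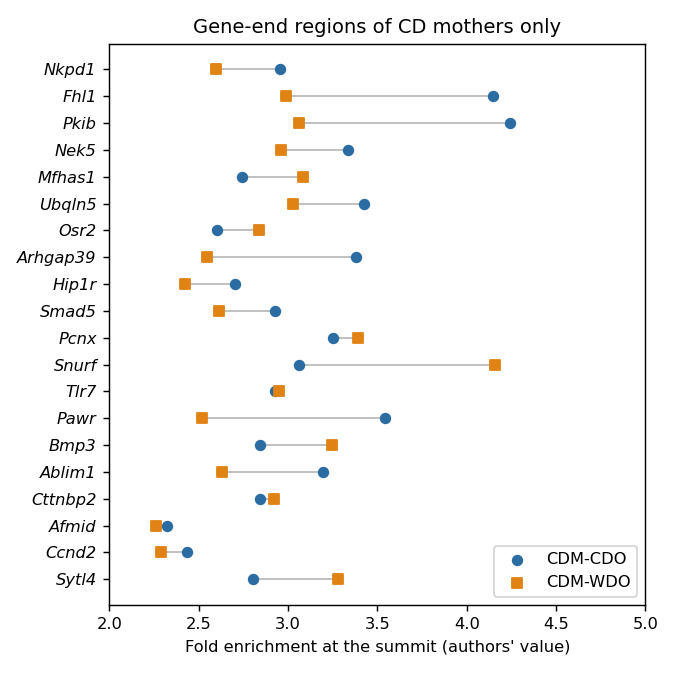
Fold enrichment at the summit (x axis, the authors' value) of the 20 strongest gene-end regions in CDM-CDO (blue circles) and CDM-WDO (orange squares), 1 gene per row in order of strength, with a line joining the 2 lists. The values lie between 2.26 and 4.24, and neither list is higher throughout.

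A few single genes were picked after their values were seen and stand for no group: the fixed lists of endothelial identity, shear stress, and Notch and angiogenesis genes held none of the 234 regions. Tfpi, whose product inhibits the start of coagulation, held a region of fold 3.08 in CDM-CDO and 2.92 in CDM-WDO (chromosome 2, 84454855 to 84455377), and WD-mother peaks lay 29333 and 29261 bp from it. A region 18942 bp from Ackr3, the scavenger receptor gene for the chemokine Cxcl12, had folds of 2.61 and 2.68. Foxo1, a transcription factor gene of quiescent endothelium, had 2.73 and 2.52, and Tal1, a factor of blood and endothelial precursors, 2.97 and 2.67. In Tal1 the summits of CDM-CDO and CDM-WDO were 3 bp apart. Jcad, named for an endothelial junction protein, had a region 75282 bp away with folds of 2.59 and 2.66, and a WDM-CDO peak lay 489 bp from it.

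Most of the genes had other peaks. Foxo1 had 9, 7, 8 and 7 assigned regions in CDM-CDO, CDM-WDO, WDM-CDO and WDM-WDO, and Bach2, a transcription factor gene of lymphocytes, had 19, 18, 18 and 20. Tfpi had 4, 1, 3 and 3. Of the 162 genes that the regions were assigned to, 132 had at least 1 region in a list of WD mothers and 30 (18.5%) had none. The share with none was 16.3% of 2732 genes for regions of CDM-CDO alone and 20.7% of 2648 for CDM-WDO alone, on both sides of the share here. Among the 30 were Fhl1, Nek5, Snurf, Bmp3, Sorbs2 and Nr1h4, the last encoding the bile acid receptor. Peg10, a paternally expressed gene, was not among them: WDM-WDO had a region there, 812 bp from the one of CD mothers (folds 3.54 and 4.08).

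Ablim1 and Fgf14 were the genes with 2 of the regions each. At Ablim1, an actin-binding protein gene, the gene-end region had folds of 3.20 in CDM-CDO and 2.63 in CDM-WDO, and the other, inside the gene, 2.75 and 2.57. At Fgf14, a fibroblast growth factor family gene, 1 region had 2.97 and 3.23 and the other 2.87 and 2.93. Within 100 kb of each other lay 2 pairs of the 234, neither of them at Ablim1 or Fgf14. The closest pair, near Pim3 and inside Ttll8 on chromosome 15, was 56731 bp apart.

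Of the 342 genes matched from 20 lists of vascular, inflammatory, lipid, chromatin and cell type genes, none was the nearest gene of any of the 234 regions. This held for genes of endothelial identity, shear stress and vascular tone, adhesion and chemokines, Notch and angiogenesis, and TGF-beta. It held for those of NF-kB, AP-1, interferon, antigen presentation, oxidative stress, lipids, histone enzymes and housekeeping, and for markers of smooth muscle, fibroblasts, white blood cells, red cells and adipocytes. Of all merged regions, 2.28% were assigned to such a gene, and of the 41486 with a gene within 100 kb 2.64% were. With 3 taken as the most that a count of 0 allows, the 0 of 164 assigned regions allows a share of up to 1.83%. This limit is not a Wilson interval, which would reach higher. Among assigned regions of CDM-CDO alone the share was 1.61%, of CDM-WDO alone 1.94% and of WD mothers alone 3.48%.

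Chromosome X held 27 of the 234 regions (11.5%, 8.05 to 16.3%), against 3.47% of all merged regions. No other chromosome held more than 17. The share on X was 1.95% (1.39 to 2.73%) for regions of WD mothers alone, 2.57% for regions of all 4 lists, 4.73% for CDM-CDO alone and 7.02% for CDM-WDO alone. Away from gene ends it was 10.1% of 208 regions, against 3.60% of all. X held 3.05% of CDM-CDO peaks, 3.97% of CDM-WDO, 3.09% of WDM-CDO and 2.22% of WDM-WDO, the lowest share of the 4.

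The 27 had median pileups of 18 in CDM-CDO and 19 in CDM-WDO. They included the gene-end regions of Fhl1, Tlr7, Sytl4, Ddx3x, Nhs and Dcaf12l1, and 7 lay over 100 kb from a gene. With −log10 q of at least 3 asked of the CD-mother lists, 3 of 60 regions (5%) were on X, against 3.08% of all. Of the 77 regions whose lower percentile was up to 10, 13 were on X. The share on X over all regions of that strength was not taken. At the 266 regions of X in all 4 lists the median pileup was 0.80 times that of autosomes in CDM-CDO and in CDM-WDO, 0.79 times in WDM-CDO and 0.73 times in WDM-WDO. Ddx3y, Uty, Eif2s3y and Kdm5d, genes of chromosome Y, had no peak in any list, while their X partners had 1 or 2 in each. The part of X coverage in the count was not tested.

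**Figure D5:**
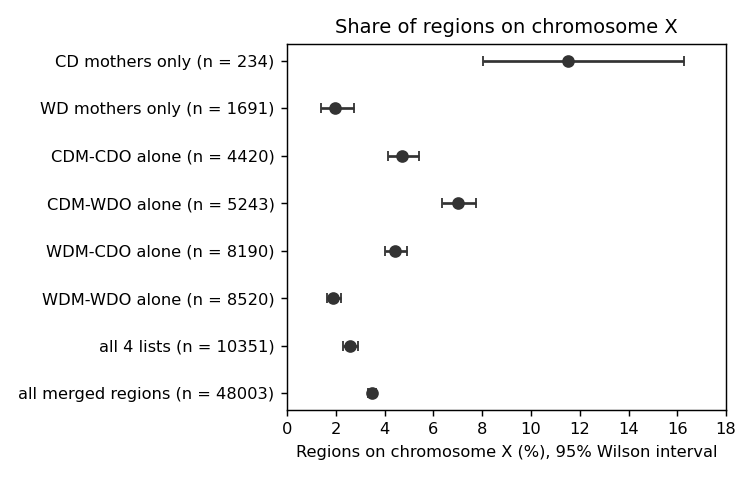
Share of regions on chromosome X (x axis, %) for the 234 regions of CD mothers only and for 7 other sets, with 95% Wilson intervals that cover counting error only. The top point, at 11.5%, lies above the others, of which CDM-WDO alone is highest at 7.02%.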

How the data were processed

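Peak lists of 4 groups of mouse aortic endothelial cells were used; 4 H3K27ac samples were not analysed here. The submitters' processing notes list MACS2 2.2.9.1 (peak caller), Bowtie2 2.4.5 (aligner), SAMtools 1.13 and build GRCm38 (mm10), with no settings. The sources used here do not say whether samples were pooled or reads shifted for the transposase. Fold enrichment (a ratio), −log10 p and −log10 q are values the authors deposited; the deposited display score was not used. The lowest −log10 q was 1.30 to 1.31. Whole summit pileups were recovered from fold and −log10 p (Poisson tail, 1 read added to both terms of the fold), matching within a relative 0.0001 for 100% of peaks, in Python 3.11.15 with SciPy 1.17.1, tested on simulated data.

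Genes were 21627 protein-coding genes of RefSeq GRCm38.p6; a region was assigned to the nearest span within 100 kb. A gene end is either end of the span, within 1 kb. No genome was used, so planned GC and motif shares of the regions themselves were replaced by promoter windows; the 7 motifs were kept from a longer list after counts were seen. The regions and lists were chosen with earlier results of these data known. Named were the 12 strongest regions, 20 strongest at gene ends, fixed-list genes and genes with 2 regions, plus others said to be chosen later.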

Additional observations from a re-analysis of the deposited data

Results flagged for a closer look

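Peaks on chromosome Y, which the comparisons leave out, numbered 4 in CDM-CDO, 5 in WDM-CDO and 8 in WDM-WDO, above the 3 that a count of 0 allows, and 3 in CDM-WDO. All lay between 90737845 and 90812983, near the end of Y that pairs with X.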

How the results depend on the processing

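The count of 234 was 244 with peaks up to 200 bp apart merged, 226 with an overlap of at least 100 bp and 291 with each list cut to 18962 peaks, of which 143 of the 234 were overlapped. It was 91 with −log10 q of at least 3 in all 4 lists and 60 with that threshold in the CD-mother lists only. With peaks of local background over 3 times that of the genome left out it was 528, since this also removes WD-mother peaks; with whole regions holding such a peak left out, an alternative chosen after seeing the data, it was 234. The gene-end share of 11.1% was 17.5% with a window of 5 kb, for which the share of all merged regions was not taken. At equal list length it was 16.2%, against 32.3% of all merged regions. With high-background peaks left out it was 43.9% (232 of 528), above the 23.5% of all merged regions, so the low share at gene ends did not hold there. All 234 stayed among these 528, and the others lay in regions with a WD-mother peak in the full lists. With whole regions holding a high-background peak left out, the gene-end share was 11.1%, against 20.7% of all merged regions. The share on X, in alternatives chosen after seeing the data, was 6.59% and 5% under the 2 thresholds, 7.56% at equal length and 5.11% with high-background peaks left out. Among all merged regions of the same settings it was 2.86%, 3.08%, 3.27% and 3.59%, in that order. Against 29.9% over 100 kb from a gene there were 20.9% with the threshold in all 4 lists, 24.4% at equal length and 13.3% with high-background peaks left out; in each the share of all merged regions was lower except the last (14.1%). Median folds were 3.26 and 3.20 in CDM-CDO and CDM-WDO with the threshold in the CD-mother lists, and 3.15 in CDM-CDO at equal length. The summit gap did not change beyond its interval. The 0 of fixed-list genes was also 0 with a reach of 10 kb, which only drops assignments and so could not raise it. Planned GC and motif alternatives on the regions were not run, for want of a genome. No paired analysis was possible because each group has 1 list and no list separates the samples. At 14 to 20 reads a call turns on a few reads, which limits what a missing call shows.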

Other observations

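Olfactory and vomeronasal receptor genes, which lie in large clusters and are mostly used by sensory neurons, were the nearest genes of 6 of the 164 assigned regions (3.66%). The share was 0.94% of all assigned regions, 0.09% of those of all 4 lists, 1.34% for CDM-CDO alone and 3.30% for CDM-WDO alone. Regions inside a gene and away from its ends were in long genes. Their genes had a median span of 175.5 kb over 72 regions, against 71.5 kb for regions of all 4 lists and 105.6 kb for all merged regions, and 31 of the 72 (43.1%) were in genes of over 200 kb. The same share was 29.9% for all merged regions, 38.5% for CDM-CDO alone, 49.0% for CDM-WDO alone and 20.8% for WD mothers alone. Median spans were 135.8 kb for CDM-CDO alone and 194.3 kb for CDM-WDO alone, on both sides of the span here. Both observations were made after the data were seen.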
